A study of Mus musculus with 6 samples.

Results

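The TAM system is represented here by 5 genes of 55487 in the deposited table, the receptor tyrosine kinases *Axl*, *Mertk* and *Tyro3* and their ligands *Gas6* and *Pros1*. The genes were chosen by their symbols, and they were selected on the same comparison that is described below, in which *Axl* was known to be highly expressed and lower after knockdown. The members' differences are therefore given as a description, with no test. All 5 passed the filter on low counts and were among the 14531 genes tested. Below, a gene is called where its Benjamini-Hochberg adjusted p in the edgeR fit over all these genes was under 0.05. Calls of members are given for description only, and nothing is read from them.

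RNA sequencing was done on mouse pulmonary artery smooth muscle cells (mPASMCs) transfected with a control siRNA (si-NC) or with an siRNA against the long noncoding RNA *Snhg18* (si-*Snhg18*), with 3 libraries in each group. Both groups were commercial cultured cells that received a lipid transfection, and the labels name no other treatment, allele or age. The oxygen level of the sequenced cells and when they were harvested were not given in the sources used here. The labels number the libraries of each group 1 to 3 but do not state that they came from separate cultures, so the p-values measure the spread between these libraries, which may be technical. EdgeR called 3.71% of all tested genes lower and 3.65% higher, and 13.6% in each direction with a replicate block, which compares same-numbered libraries. DESeq2 called 1052 of the 14531 lower and 1072 higher, limma-voom 548 and 488, and 1755 and 1858 had an unadjusted p under 0.05. All knockdown libraries lay below all control libraries for 15.5% of the genes and above them for 15.4%. The log2 fold change was negative for 7147 of the tested genes and positive for 7384. These values stand beside every list below.

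TAM receptors bind *Gas6* and protein S, the product of *Pros1*, which bridge them to phosphatidylserine on dying cells or membrane fragments. Binding activates the kinase, which signals through PI3K, AKT and phospholipase C, and metalloproteases can cut the receptor from the cell surface. AXL binds GAS6 and is known in vascular smooth muscle for survival and migration, MERTK is best known for engulfment by macrophages, and TYRO3 is known from the nervous system.

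Sequencing depth was 18097718 to 25988746 counts per library, with si-*Snhg18* 3 the shallowest. *Snhg18* was at 23.5, 22.4 and 22.1 CPM (counts scaled to library size with TMM factors) in si-NC 1 to 3 and at 10.6, 11.1 and 9.97 CPM in si-*Snhg18* 1 to 3, so the targeted RNA was lower in every knockdown library (log2 fold change -1.10, SE 0.099, edgeR adjusted p = 0.00727). Smooth muscle markers were all 6 tested, and their summed level was 1723 to 1865 CPM in si-NC and 1188 to 1811 CPM in si-*Snhg18*, with 1 of them, *Tagln*, lower (log2 fold change -0.51, edgeR adjusted p = 0.0427). DESeq2 called 3 of the 6, limma-voom 1, and 3 were lower at an unadjusted p under 0.05. Under a replicate block, which compares same-numbered libraries, edgeR called 4 of the 6 lower, namely *Tagln*, *Cnn1*, *Des* and *Myh11*. *Des* was at 11.6 ± 6.999 and 3.34 ± 1.56 CPM (SD, n = 3), and no smooth muscle marker was called higher in any of these fits. The 4 fibroblast markers, mostly *Col1a1*, summed to 2262 to 2954 CPM in si-NC and 1374 to 2213 CPM in si-*Snhg18*, and 0 of them were called by edgeR, DESeq2 or limma-voom, with 1 lower at an unadjusted p under 0.05, while the edgeR fit with the block called *Col1a1* and *Pdgfra* lower (adjusted p = 0.00369 and 0.0112). The 5 endothelial markers summed to 12.4 to 14.0 and 13.3 to 15.4 CPM, and the 6 macrophage and leukocyte markers to 7.59 to 11.04 and 6.22 to 12.9 CPM. Most of the latter sum was *Csf1r*, at 73 to 216 counts per library, and *Cd68*, at 44 to 89. *Mrc1* was at 6 to 21 counts, *Ptprc* and *Itgam* at 8 and 3 counts at most, and *Adgre1* at 0 counts. The 4 epithelial markers, nearly all *Krt18*, summed to 7.24 to 22.7 CPM in si-NC and 1.19 to 7.41 CPM in si-*Snhg18*. Of the last 3 lists 0 markers were called by edgeR without the block, DESeq2 or limma-voom, with 1 endothelial marker lower at an unadjusted p under 0.05, and the edgeR fit with the block called *Krt18* and the endothelial *Tek* lower (adjusted p = 0.00216 and 0.0341). The part of these differences in the results below was not tested, and in bulk RNA fewer cells of a type cannot be told apart from less RNA per cell.

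The 250 bases before the RefSeq start sites of *Axl* and *Gas6* are shown because all knockdown libraries lay below all control libraries for both genes. That held for 15.5% of all tested genes. The members were selected on this comparison, so nothing is read from this choice. The windows lie on the minus strand of GRCm38.p6 at chr7:25788734-25788983 for *Axl* and chr8:13494536-13494785 for *Gas6*, 5′ to 3′. Capitals mark exact matches on either strand to a GC box (GGGCGG), which SP and KLF factors bind, a TEAD site (GGAATG) or an AP-1 site (TGANTCA). No match overlapped another in the windows of *Axl* and *Gas6*.
Axl: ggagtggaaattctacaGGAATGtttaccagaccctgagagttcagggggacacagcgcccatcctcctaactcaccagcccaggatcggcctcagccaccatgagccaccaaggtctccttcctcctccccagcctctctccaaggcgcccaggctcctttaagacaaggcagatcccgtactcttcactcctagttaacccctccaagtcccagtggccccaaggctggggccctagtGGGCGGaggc
Gas6: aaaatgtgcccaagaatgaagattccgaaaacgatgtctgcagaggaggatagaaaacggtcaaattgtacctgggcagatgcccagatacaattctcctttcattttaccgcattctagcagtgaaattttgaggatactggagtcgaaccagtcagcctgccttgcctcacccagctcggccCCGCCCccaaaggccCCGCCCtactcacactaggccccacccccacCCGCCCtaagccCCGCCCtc
The *Axl* window held 1 GC box, beginning 10 bases before the start, and 1 TEAD site, beginning 233 bases before it. The *Gas6* window held 4 GC boxes and no TEAD site. No AP-1 match lay in either window. Of 32851 such windows, 32.7% held at least 1 GC box, 4.09% held at least 4, 12.6% held a TEAD site and 6.75% held an AP-1 site. The windows of *Mertk*, *Tyro3* and *Pros1* held 3, 3 and 5 GC boxes and none of the other motifs. In *Pros1* the matches beginning 12 and 8 bases before the start overlapped each other. These matches describe letters and not occupied sites.

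*Axl* (ENSMUSG00000002602) encodes the receptor with the highest affinity for GAS6, and it was by far the most abundant member. The gene covers 31433 bases (chr7:25757273-25788705, minus strand), and its longest coding transcript has 20 exons. Its level was 1960, 1877 and 1922 CPM in si-NC 1 to 3 and 1047, 1055 and 1007 CPM in si-*Snhg18* 1 to 3. All 3 knockdown libraries lay far below all 3 control libraries, and the libraries within a group were close to each other. The mean went from 1920 ± 41.8 CPM to 1037 ± 25.6 CPM (SD, n = 3), so that 54.0% of the control level remained. The log2 fold change was -0.89 with an SE of 0.060, and it ranged from -0.91 to -0.87 over the fits that each left out 1 library. The values rested on 18400 to 45997 counted reads per library. Same-numbered libraries differed by -0.90, -0.83 and -0.93 on the log2 CPM scale. In level per length, *Axl* ranked at position 155 of the 14531 tested genes, counted from the highest, and 450 genes had a lower fold change.

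*Tyro3* (ENSMUSG00000027298), the receptor next in level, was higher in the knockdown libraries. The gene lies at chr2:119797733-119818104 on the plus strand. Its level was 40.8, 40.2 and 41.9 CPM in si-NC 1 to 3 and 55.2, 44.7 and 54.3 CPM in si-*Snhg18* 1 to 3. The groups did not overlap, though si-*Snhg18* 2 lay close to the controls. The mean went from 41.0 ± 0.868 CPM to 51.4 ± 5.85 CPM (SD, n = 3), with a log2 fold change of 0.33 and an SE of 0.100. The log2 fold change was 0.42 without si-*Snhg18* 2. The edgeR fit called *Tyro3* higher without that library, where it called 1545 of 14832 tested genes higher. It also did so with the replicate block, where 13.6% of all tested genes were called higher, but not with all 6 libraries and no block. Since the members were chosen on this comparison, nothing is read from these calls.

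*Mertk* (ENSMUSG00000014361) was the least abundant member. The gene lies at chr2:128698956-128802894 on the plus strand. Its level was 17.0, 16.0 and 19.9 CPM in si-NC 1 to 3 and 19.3, 13.3 and 17.2 CPM in si-*Snhg18* 1 to 3. The groups overlapped, and the knockdown libraries held both the lowest value and the second highest of the 6. The mean was 17.6 ± 1.98 CPM in si-NC and 16.6 ± 3.03 CPM in si-*Snhg18* (SD, n = 3), and the log2 fold change of -0.09 was smaller than its SE of 0.167. It turned positive, to 0.05 and 0.01, without si-*Snhg18* 2 and without si-NC 3. The counts, 314 to 487 per library, were the smallest among the members.

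Of the ligands, *Gas6* (ENSMUSG00000031451), the ligand shared by all 3 receptors, was lower in the knockdown libraries. Its position is chr8:13465374-13494490 on the minus strand. Its level was 60.6, 77.7 and 57.1 CPM in si-NC 1 to 3 and 33.0, 46.2 and 34.1 CPM in si-*Snhg18* 1 to 3. The groups did not overlap, and library 2 was the highest of its group in both. The mean went from 65.1 ± 11.1 CPM to 37.8 ± 7.33 CPM (SD, n = 3), with 58.0% remaining. The log2 fold change was -0.78 with an SE of 0.176, and same-numbered libraries differed by -0.87, -0.75 and -0.74. With the replicate block the log2 fold change was -0.79 and its SE fell to 0.069.

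*Pros1* (ENSMUSG00000022912) encodes protein S, which binds MERTK and TYRO3 and is also an anticoagulant cofactor. Its position is chr16:62854307-62929346 on the plus strand. Its level was 359, 281 and 406 CPM in si-NC 1 to 3 and 554, 260 and 463 CPM in si-*Snhg18* 1 to 3. The groups overlapped, since si-*Snhg18* 2 held the lowest value of all 6 libraries while the other knockdown libraries held the highest ones. The mean was 349 ± 63.3 CPM in si-NC and 426 ± 151 CPM in si-*Snhg18* (SD, n = 3), and the log2 fold change of 0.29 was close to its SE of 0.282. Without si-*Snhg18* 2 the log2 fold change was 0.54, and without si-*Snhg18* 1 it was 0.05. In both groups library 2 was the lowest for *Pros1* and the highest for *Gas6* and for the marker *Col1a1*, which was at 1744, 2470 and 1710 CPM in si-NC 1 to 3 and at 911, 1859 and 1133 CPM in si-*Snhg18* 1 to 3.

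**Figure D1:**
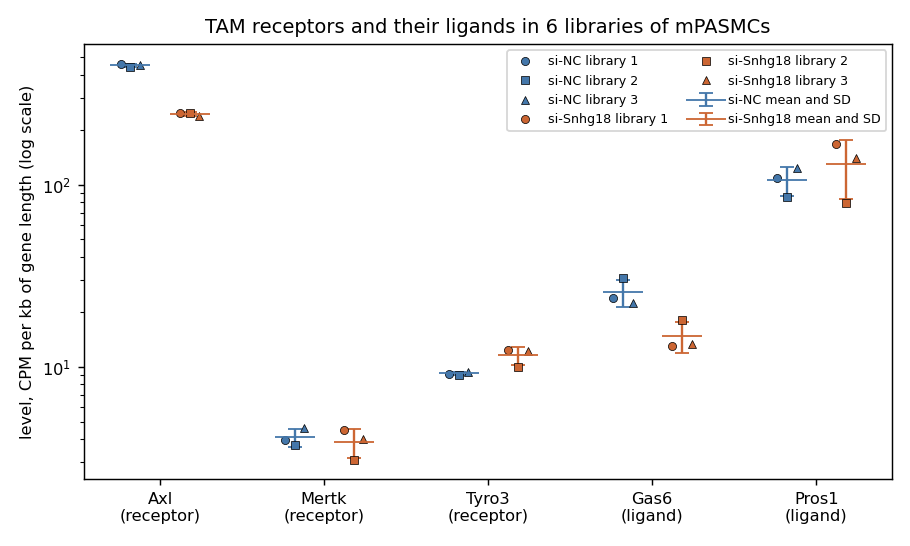
Level of each TAM receptor and ligand in CPM per kilobase of gene length on a log axis, with 1 point per library and bars for the mean and SD of 3 libraries. *Axl* is the highest member in both groups, *Axl* and *Gas6* sit lower in all si-*Snhg18* libraries, *Tyro3* sits higher, and the groups overlap for *Mertk* and *Pros1*.

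The edgeR fit called 2 of the 5 members lower, *Axl* and *Gas6*, and 0 higher, beside 3.71% of all tested genes called lower and 3.65% called higher. At an unadjusted p under 0.05 the counts were 2 lower and 1 higher, beside 1755 and 1858 of the 14531 tested genes. DESeq2 and limma-voom each called 2 lower and 0 higher, beside 1052 and 1072 genes for DESeq2 and 548 and 488 for limma-voom. With the replicate block edgeR called 2 members lower and 1 higher, beside 13.6% of all genes in each direction. All knockdown libraries lay below all control libraries for 2 members and above them for 1, beside 15.5% and 15.4% of all tested genes. Since the members were chosen on this comparison, nothing is read from these counts. Leaving out si-NC 1, si-NC 3 or si-*Snhg18* 3 left 0 genes of the whole table past the adjusted threshold in edgeR, though 2512, 2731 and 2464 genes had an unadjusted p under 0.05, so every call below was also lost then. Without si-NC 2 or without si-*Snhg18* 1 the call of *Axl* held and that of *Gas6* was lost, with *Gas6* at -0.64 and -0.70 on the log2 scale, and without si-*Snhg18* 2 both held.

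**Figure D2:**
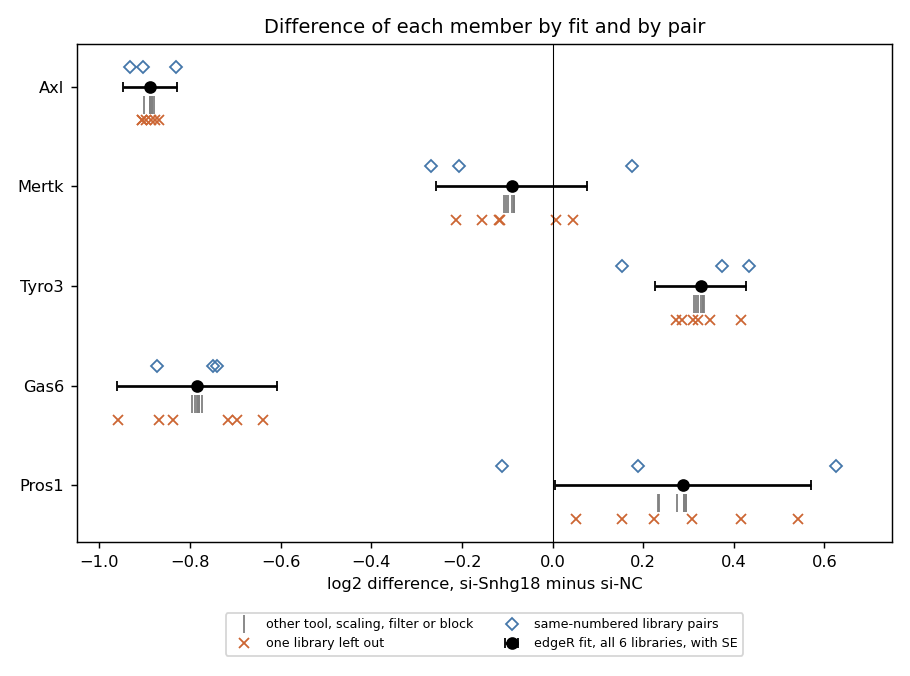
Difference of each member between si-*Snhg18* and si-NC on the log2 scale, from the edgeR fit with its SE, from other fits, from fits without 1 library and from same-numbered library pairs. The estimates of *Axl* lie within a narrow band, those of *Gas6* and *Tyro3* stay on one side of 0, and those of *Mertk* cross it. For *Pros1* the fits lie above 0 and 1 of the 3 pairs lies below it.

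Levels can be compared between genes only per length, and on that scale the makeup of the receptors differed between the groups. Per kilobase, *Axl* was at 450 ± 9.81 CPM in si-NC and 243 ± 6.01 CPM in si-*Snhg18*, *Tyro3* at 9.19 ± 0.195 and 11.5 ± 1.31 CPM, and *Mertk* at 4.10 ± 0.460 and 3.85 ± 0.704 CPM (SD, n = 3). *Axl* made up 97.1% ± 0.129 of the summed level of the 3 receptors in si-NC and 94.0% ± 0.800 in si-*Snhg18*. The share of *Tyro3* went from 1.98% ± 0.043 to 4.46% ± 0.538, and that of *Mertk* from 0.885% ± 0.094 to 1.49% ± 0.272 (SD, n = 3). Since *Axl* is nearly all of the sum, these shares rise as *Axl* falls, and the members were chosen with that fall known. The order of the receptors was the same in every library, and neighbours in that order did not overlap. The sum of the 3 receptors went from 463 ± 10.04 to 258 ± 5.33 CPM per kilobase, nearly all of it *Axl*.

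Between the ligands, *Pros1* was the higher one in every library. Per kilobase it was at 106 ± 19.2 CPM in si-NC and 129 ± 45.6 CPM in si-*Snhg18*, beside 25.6 ± 4.34 and 14.8 ± 2.88 CPM for *Gas6* (SD, n = 3). The share of *Gas6* in the sum of the 2 ligands was 19.9% ± 5.76 in si-NC and 11.5% ± 6.28 in si-*Snhg18*, and it was 17.9, 26.4 and 15.4% in si-NC 1 to 3 and 7.17, 18.7 and 8.72% in si-*Snhg18* 1 to 3. These shares overlapped between the groups, with library 2 the highest in each, and the share was lower in si-*Snhg18* in all 3 same-numbered pairs. The ratio of *Gas6* to *Axl* per kilobase was 0.0569 ± 0.0108 in si-NC and 0.0609 ± 0.0109 in si-*Snhg18* (SD, n = 3), a difference smaller than the SD of either group, though the ratio was higher in si-*Snhg18* in all 3 same-numbered pairs.

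*Axl* was the most abundant of 58 receptor tyrosine kinases per length in both groups, and it took 40.4% ± 0.433 of their summed level in si-NC and 27.8% ± 1.199 in si-*Snhg18* (SD, n = 3). The lower share restates the fall of *Axl*, which was known when the members were chosen. *Tyro3* ranked at position 15 in both groups and *Mertk* at 22 and 21. The next kinase, *Fgfr1*, a fibroblast growth factor receptor, was at 131 ± 1.86 and 95.0 ± 1.93 CPM per kilobase, and *Pdgfrb*, the receptor for PDGF-BB, at 82.7 ± 14.9 and 72.7 ± 19.5. *Styk1*, a kinase of uncertain ligand, was at 61.6 ± 5.76 and 69.1 ± 1.49, a place that rests on a deposited length of 422 bases, since its level was only 26.0 and 29.2 CPM before division by length. Of the 55 kinases outside the TAM family 37 were tested, with a median log2 fold change of -0.06 beside 0.01 over all tested genes. Of these, 1 was called lower, *Fgfr1* (log2 fold change -0.46, SE 0.058, edgeR adjusted p = 0.0125), and 0 were called higher. The shares of all tested genes were 3.71% and 3.65%. Limma-voom called 1 lower and 0 higher, DESeq2 2 lower and 2 higher, and 6 were lower and 4 higher at an unadjusted p under 0.05. Over all tested genes these counts were 548 and 488, 1052 and 1072, and 1755 and 1858. *Fgfr1* was at 646, 665 and 656 CPM in si-NC 1 to 3 and at 466, 484 and 482 CPM in si-*Snhg18* 1 to 3, without overlap. With the replicate block edgeR called 8 of the 37 lower and 3 higher, beside 13.6% of all tested genes in each direction.

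**Figure D3:**
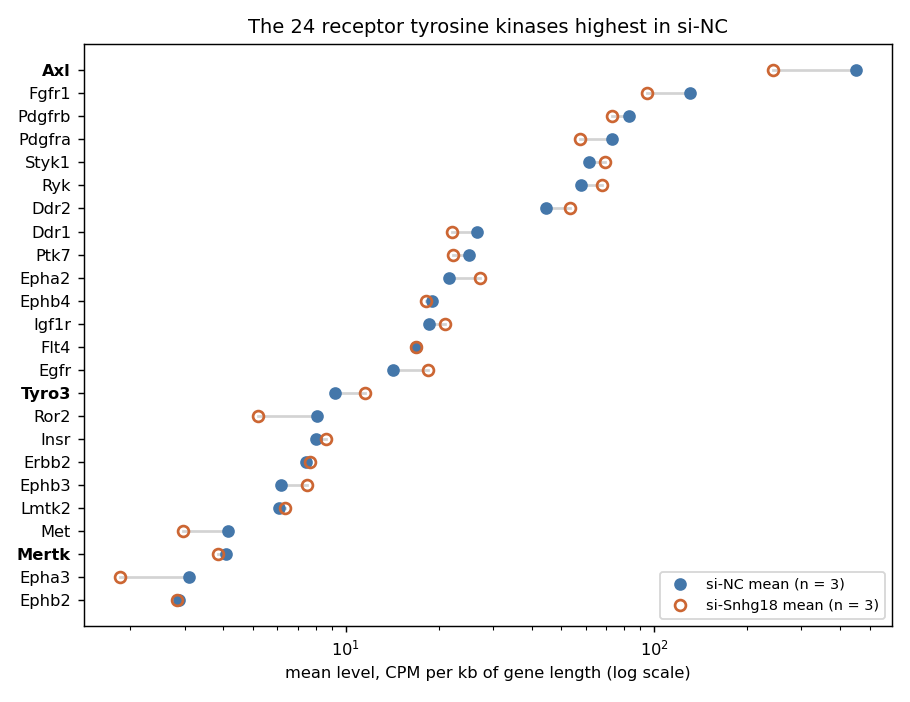
Mean level of the 24 receptor tyrosine kinases highest in si-NC, in CPM per kilobase of gene length on a log axis, for si-NC (filled) and si-*Snhg18* (open), with 3 libraries each. *Axl* is first in both groups, at 450 and 243, and *Fgfr1* second, at 131 and 95.0.

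Among genes that make the ligands active or act as other reported ligands, 3 of 6 were tested, and all 3 had a negative log2 fold change (median -0.21). Over all 14531 tested genes 7147 did. *Ggcx*, the gamma-carboxylase that lets GAS6 and protein S bind phosphatidylserine, fell. It was at 65.7, 66.2 and 67.0 CPM in si-NC 1 to 3 and at 43.4, 42.8 and 51.4 CPM in si-*Snhg18* 1 to 3, without overlap (log2 fold change -0.53, SE 0.091, edgeR adjusted p = 0.0247). *Lgals3*, which encodes galectin-3, was at 168 ± 7.48 and 145 ± 4.08 CPM (SD, n = 3; log2 fold change -0.21, edgeR adjusted p = 0.112, and 0.0294 with the replicate block). None of the 3 was called higher by edgeR, DESeq2 or limma-voom, and 0 had an unadjusted p under 0.05 in that direction. With the block 2 of the 3 were called lower, beside 13.6% of all genes, and without it 1 was, beside 3.71%. *Vkorc1*, which regenerates the vitamin K that the carboxylase needs, reached only 15 counts in a library and was not tested, as were *Tub* and *Tulp1*. *Vkorc1l1*, the remaining tested gene of the list, was at 32.6 ± 4.80 and 28.6 ± 7.21 CPM (SD, n = 3; log2 fold change -0.19, edgeR adjusted p = 0.612). *Vkorc1*, *Vkorc1l1*, *Tub* and *Tulp1* were named after their values were seen.

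Of 10 genes that expose or hide phosphatidylserine 9 were tested, 8 with a negative and 1 with a positive log2 fold change (median -0.12). Over all 14531 tested genes 7147 were negative and 7384 positive. *Tmem30a*, the subunit that flippases need to move phosphatidylserine inward, fell. It was at 184, 191 and 195 CPM in si-NC 1 to 3 and at 133, 141 and 135 CPM in si-*Snhg18* 1 to 3, without overlap (log2 fold change -0.48, SE 0.061, edgeR adjusted p = 0.0125). *Ano6*, a calcium-activated scramblase, was at 190 ± 6.13 and 174 ± 19.4 CPM (SD, n = 3) and did not pass the test (edgeR adjusted p = 0.464). EdgeR, DESeq2 and limma-voom each called 1 gene lower, and 0 genes were called higher by any of them or had an unadjusted p under 0.05 in that direction. With the replicate block 2 of the 9 were called lower, beside 13.6% of all genes, and without it 1 was, beside 3.71%.

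Of 10 genes that cut TAM receptors from the membrane or control the cut, all 10 were tested, 4 with a negative and 6 with a positive log2 fold change (median 0.04). *Adam17*, a sheddase of AXL and MERTK, rose from 92.2, 90.7 and 91.5 CPM in si-NC 1 to 3 to 134, 110 and 123 CPM in si-*Snhg18* 1 to 3 (log2 fold change 0.42, SE 0.084, edgeR adjusted p = 0.0377). *Rhbdf1*, an iRhom that brings ADAM17 to the surface, rose from 45.6, 53.7 and 49.4 CPM to 65.3, 69.6 and 70.5 CPM (log2 fold change 0.47, SE 0.085, edgeR adjusted p = 0.0290). *Timp3*, a secreted inhibitor of ADAM17, fell from 1148, 1348 and 1132 CPM to 874, 943 and 854 CPM (log2 fold change -0.44, SE 0.091, edgeR adjusted p = 0.0398). The groups did not overlap for any of the 3. *Ncstn*, a gamma-secretase subunit, was at 214 ± 7.63 and 249 ± 7.76 CPM (SD, n = 3; log2 fold change 0.22, edgeR adjusted p = 0.0891, and 0.0256 with the replicate block). The 3 called genes are 1 lower and 2 higher of 10, beside 3.71% and 3.65% of all genes.

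Of 28 intracellular partners 27 were tested, 11 with a negative and 16 with a positive log2 fold change (median 0.11), and *Vav1*, a leukocyte exchange factor named after its values were seen, had 0 counts in every library. *Plcg1*, phospholipase C gamma 1, rose from 89.4, 78.1 and 91.5 CPM in si-NC 1 to 3 to 144, 128 and 142 CPM in si-*Snhg18* 1 to 3 (log2 fold change 0.68, SE 0.088, edgeR adjusted p = 0.0133). *Nck2*, an adaptor to the actin machinery, rose from 15.4, 13.7 and 13.9 CPM to 22.5, 26.3 and 22.8 CPM (log2 fold change 0.74, SE 0.110, edgeR adjusted p = 0.0180). The groups did not overlap for either gene. The most abundant partners per length over all 6 libraries were *Akt1*, at 459 ± 13.8 and 548 ± 27.6 CPM, and *Mapk3*, which encodes ERK1, at 212 ± 8.95 and 251 ± 10.4 CPM (SD, n = 3). In si-NC alone *Rac1*, a small GTPase named after its values were seen, stood above *Mapk3*, at 130 beside 118 CPM per kilobase. The edgeR adjusted p-values of *Akt1* and *Mapk3* were 0.0742 and 0.0817, and 0.0129 and 0.0154 with the replicate block. For *Rac1* they were 0.264 without the block and 0.146 with it. EdgeR and limma-voom each called 0 partners lower and 2 higher, DESeq2 called 1 lower and 6 higher, and 3 were lower and 8 higher at an unadjusted p under 0.05. Over all tested genes limma-voom called 548 lower and 488 higher, DESeq2 1052 and 1072, and 1755 and 1858 had such an unadjusted p. With the block 3 of the 27 were called lower and 9 higher, beside 13.6% of all genes in each direction, and without it the shares of all genes were 3.71% and 3.65%.

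Of 15 other bridging proteins and engulfment receptors for phosphatidylserine 10 were tested, 7 with a negative and 3 with a positive log2 fold change (median -0.16). *Calr*, calreticulin, a chaperone that also serves as an engulfment signal at the surface, fell from 1604, 1472 and 1607 CPM in si-NC 1 to 3 to 965, 916 and 885 CPM in si-*Snhg18* 1 to 3 (log2 fold change -0.76, SE 0.071, edgeR adjusted p = 0.00742). *Itgav*, the integrin subunit that pairs with beta 3 or beta 5 to bind MFGE8, fell from 582, 559 and 631 CPM to 479, 423 and 462 CPM (log2 fold change -0.38, SE 0.080, edgeR adjusted p = 0.0421). *Scarb1*, a scavenger receptor, rose from 77.2, 65.0 and 77.6 CPM to 133, 105 and 120 CPM (log2 fold change 0.70, SE 0.114, edgeR adjusted p = 0.0216). The groups did not overlap for these 3. *Lrp1*, a large endocytic receptor, was at 4866 ± 166 and 4321 ± 229 CPM (SD, n = 3; log2 fold change -0.17, edgeR adjusted p = 0.191, and 0.0407 with the replicate block). *Mfge8* and *Megf10* rose without overlap, from means of 420 and 9.57 CPM to 509 and 17.2 CPM. Their edgeR adjusted p-values were 0.0803 and 0.0537 (0.00981 and 0.0155 with the block). *Itgb3* and *Itgb5*, the beta 3 and beta 5 subunits, had log2 fold changes of -0.39 and -0.15. Their edgeR adjusted p-values were 0.497 and 0.496 (0.00635 and 0.0821 with the block). *Mfge8*, *Megf10*, *Itgb3* and *Itgb5* were named after their values were seen. With the block 4 of the 10 were called lower and 3 higher, where 13.6% of all genes were called in each direction, beside 2 and 1 without it, where 3.71% and 3.65% were.

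All 14 transcription factors known at the *Axl* or *Mertk* genes or downstream of them were tested, 8 with a negative and 6 with a positive log2 fold change (median -0.09). Of the 4 TEAD genes, whose proteins partner YAP1 at DNA, 1 fell, 2 rose and 1 was not called. *Tead3* fell from 67.4, 72.7 and 71.1 CPM in si-NC 1 to 3 to 43.4, 54.5 and 49.3 CPM in si-*Snhg18* 1 to 3 (log2 fold change -0.52, SE 0.099, edgeR adjusted p = 0.0325). *Tead2* rose from 57.3, 55.7 and 55.8 CPM to 71.6, 72.9 and 75.6 CPM (log2 fold change 0.38, SE 0.062, edgeR adjusted p = 0.0216). *Tead4* rose from 8.37, 9.51 and 7.03 CPM to 12.9, 16.1 and 12.8 CPM (log2 fold change 0.75, SE 0.166, edgeR adjusted p = 0.0474). The groups did not overlap for the 3 genes. *Tead1*, the most abundant of the 4 and named after its values were seen, was at 402 ± 26.3 and 373 ± 22.8 CPM (SD, n = 3; log2 fold change -0.11, edgeR adjusted p = 0.44). *Twist2*, a basic helix-loop-helix factor, was at 198 ± 49.3 and 131 ± 31.2 CPM, and *Yap1* at 279 ± 22.1 and 333 ± 27.2 CPM (SD, n = 3). Their edgeR adjusted p-values were 0.195 and 0.156, and 8.3e-04 and 0.0132 with the block. With the block 5 of the 14 factors were called lower and 4 higher, beside 13.6% of all genes in each direction. Without it 1 was called lower and 2 higher, beside 3.71% and 3.65% of all genes.

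**Figure D4:**
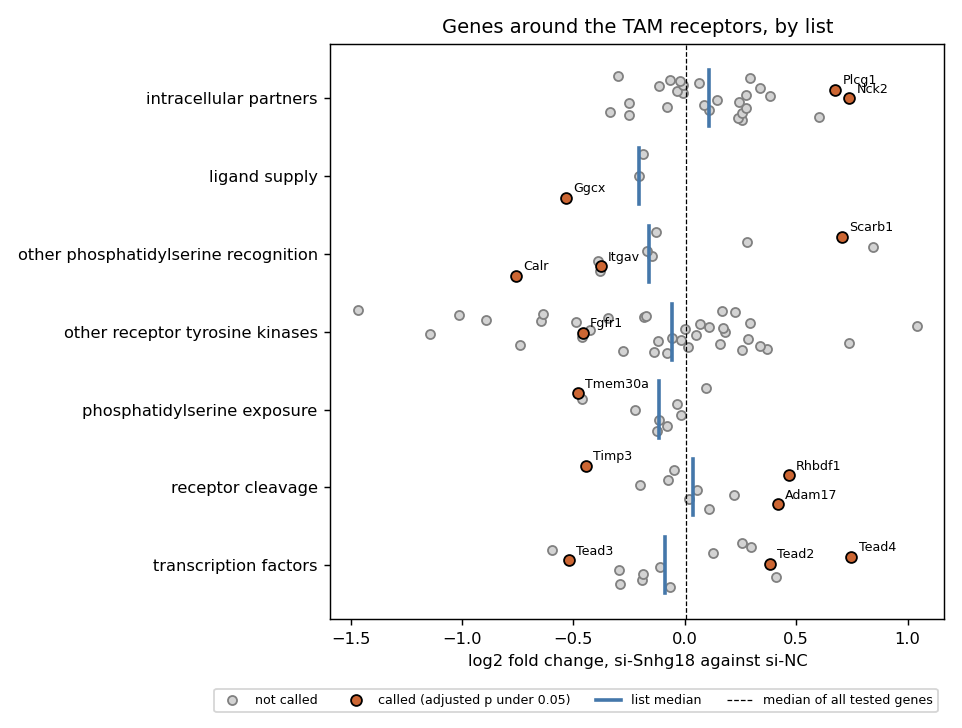
Log2 fold change of every tested gene of the 7 lists around the TAM receptors, with genes past an adjusted p of 0.05 in edgeR filled and named, the median of each list as a bar and the median of all tested genes as a dashed line. *Calr*, *Ggcx*, *Tead3*, *Tmem30a*, *Fgfr1*, *Timp3* and *Itgav* lie on the lower side, and *Nck2*, *Tead4*, *Scarb1*, *Plcg1*, *Rhbdf1*, *Adam17* and *Tead2* on the higher side.

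The tested genes around *Axl* on chromosome 7 differed in direction, 5 with a positive and 2 with a negative log2 fold change. Of 17 annotated genes within 100 kb of it 7 were tested and 1 was called, beside 3.71% of all tested genes called lower and 3.65% higher. The nearest, *Hnrnpul1*, which encodes an RNA-binding protein of the hnRNP U family, begins 2516 bases beyond the 3′ end of *Axl* on the same strand. It rose from a mean of 189 to 247 CPM (log2 fold change 0.39, SE 0.075, edgeR adjusted p = 0.0341), beside -0.89 for *Axl*. The other 6 were not called, among them *Ccdc97*, of which little is known, at 47.3 and 37.8 CPM (log2 fold change -0.32, edgeR adjusted p = 0.0711, and 0.0242 with the replicate block) and *Bckdha*, a subunit of the branched-chain keto acid dehydrogenase, at 21.1 and 26.3 CPM (0.32, edgeR adjusted p = 0.108, and 0.0359 with the block). *Tgfb1*, the growth factor, had a log2 fold change of 0.13, and *Exosc5*, *B9d2* and *Cyp2s1* had 0.09, -0.14 and 0.37, the last with an SE of 0.539.

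Around the other members 1 of 9 tested neighbours was called, where 3.71% of all tested genes were called lower and 3.65% higher. *Anapc1*, a subunit of the anaphase-promoting complex that begins 11565 bases from *Mertk*, fell from a mean of 219 to 180 CPM (log2 fold change -0.28, SE 0.056, edgeR adjusted p = 0.0366). The other neighbour of *Mertk*, *Tmem87b*, had a log2 fold change of -0.33 with an SE of 0.258. Around *Tyro3*, *Rtf1*, *Rpap1* and *Mga* had -0.22, -0.09 and 0.03, and around *Gas6*, *Tfdp1* and *Rasa3* had 0.02 and -0.41, the latter with an SE of 0.337. Around *Pros1*, *Nsun3* and *Arl13b* had 0.12 and -0.06. Genes that overlap *Mertk* (*Gm14011*, *Gm23172*) or *Gas6* (*Tmem255b*), named after their values were seen, had at most 0, 3 and 1 counts in a library. Of all stretches of 50 bases in the annotated transcripts of each member, 0 occurred in a transcript of another gene on either strand.

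**Figure D5:**
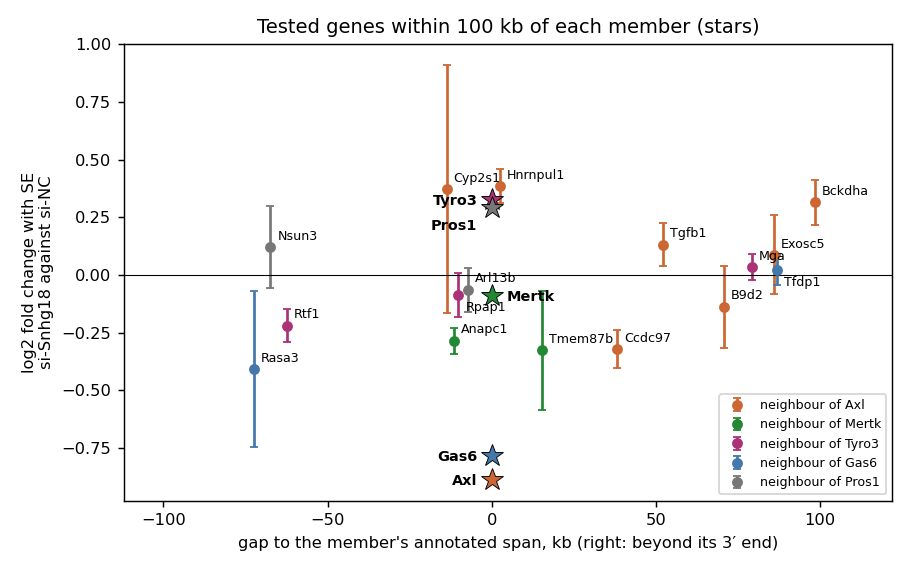
Log2 fold change with SE of the 16 tested genes within 100 kb of a member, against the gap in kilobases to that member's annotated span, with members as stars at 0. *Axl*, at -0.89, lies apart from its nearest neighbour *Hnrnpul1*, at 0.39.

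The genes whose profile over the 6 libraries was most like that of *Axl* were looked for among 5615 tested genes whose mean log2 CPM reached 5, by the root mean square difference of log2 profiles centred on their own means. The closest was *Coa5*, a cytochrome c oxidase assembly factor, with a root mean square difference of 0.0380 and levels of 109, 112 and 113 CPM in si-NC 1 to 3 and 59.3, 62.3 and 59.3 CPM in si-*Snhg18* 1 to 3. It was followed by *Ssr3*, a subunit of the translocon-associated complex (0.0510), *Rps25*, a ribosomal protein (0.0599), *Cldnd1*, a claudin-like membrane protein (0.0600), and *Tmed2*, a cargo receptor of the early secretory pathway (0.0614). Their log2 fold changes were -0.89, -0.80, -0.999, -0.82 and -0.83, in the order named, and all lay near that of *Axl* by construction. Reads of *Rps25* may be shared with processed copies of the gene, so its level is uncertain.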

How the data were processed

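RNA sequencing libraries of 6 mPASMC samples, 3 with si-NC and 3 with si-*Snhg18*, were grouped by their labels. The authors prepared stranded mRNA libraries, and per the labels reads were aligned with HISAT2 to mm10. They deposited whole-number counts of reads per gene, without normalization, with gene positions on GRCm38.p6 and an exon length per gene as another deposited column. The counting program, its strand setting and its filters were not given in the sources used here.

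The main fit was made in edgeR 4.0.16 under R 4.3.3 (filterByExpr with a minimum count of 10, TMM, glmQLFit, glmQLFTest), with Benjamini-Hochberg adjustment over 14531 genes and a threshold of 0.05. CPM values used TMM factors, log2 CPM values a prior count of 2, and levels per kilobase the deposited lengths. The common biological coefficient of variation was 0.218. The code was tested on simulated data. DESeq2 1.42.0, limma 3.58.1 (voom), RLE factors, library totals, no filter, a minimum count of 50, the replicate block and leaving out each library were tried as alternatives.

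Same-numbered libraries deviated together from their group means (r = 0.41, 0.742 and 0.359 over tested genes for numbers 1, 2 and 3). A fit that pairs the libraries by number, the replicate block, is therefore given as an alternative. The study does not state a pairing, libraries with unlike numbers were not compared in this way, and the fit without the block was kept as the main fit.

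The members and lists were chosen with earlier results of these data known. Named genes were the members, *Snhg18*, called genes of each list (up to 6, or 8 for receptor tyrosine kinases) and its 2 (kinases: 3) highest genes per kilobase, tested genes within 100 kb of a member, and the 5 most like *Axl*. Marker genes came from fixed lists. Promoter letters are RefSeq's on GRCm38.p6, where all 5 members had an entry, and transcripts are those of GENCODE on GRCm38. Every member had at least 314 counts in each library.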

Additional observations from a re-analysis of the deposited data

How the results depend on the processing

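The log2 fold changes of the members and of *Snhg18* kept their size, within the spread between libraries, under DESeq2, RLE factors, library totals, no filter, a minimum count of 50, limma-voom and the replicate block. Without TMM factors 1 member was called lower instead of 2, since *Gas6* was lost. With the replicate block 1 member was called higher (*Tyro3*), and the counts were 3 lower and 9 higher for intracellular partners, 2 lower for ligand supply, 4 lower and 3 higher for other phosphatidylserine recognition, 8 lower and 3 higher for other receptor tyrosine kinases, 2 lower for phosphatidylserine exposure, and 5 lower and 4 higher for transcription factors. It called 4 smooth muscle and 2 fibroblast markers lower instead of 1 and 0, 1 endothelial and 1 epithelial marker lower instead of 0, and 3 neighbours of *Axl* instead of 1. It moved no other count given here for a list by over 1.5 times and changed no call of a named gene beyond those stated in the text, and over all genes it called 1972 lower and 1982 higher beside 539 and 530. DESeq2 called 1052 and 1072 genes, with 1 lower and 6 higher among intracellular partners, 3 higher in other phosphatidylserine recognition, and 2 lower and 2 higher among other receptor tyrosine kinases. Without TMM factors 4 intracellular partners and 2 genes of other phosphatidylserine recognition were higher, 0 of receptor cleavage lower and 1 transcription factor higher. No filter left 1 higher in receptor cleavage and 1 among transcription factors. A minimum count of 50 and limma-voom each gave 2 higher in other phosphatidylserine recognition.

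Leaving out 1 library gave 0 to 2 members lower and 0 to 1 higher, 0 to 1 intracellular partners lower and 0 to 8 higher, 0 to 1 lower in ligand supply, 0 to 2 lower and 0 to 3 higher in other phosphatidylserine recognition, 0 to 5 lower and 0 to 3 higher among other receptor tyrosine kinases, 0 to 2 lower in phosphatidylserine exposure, 0 to 1 lower and 0 to 2 higher in receptor cleavage, and 0 to 2 lower and 0 to 4 higher among transcription factors. The log2 fold change of *Snhg18* was then -1.14 to -1.06, with edgeR adjusted p-values of 0.00474 to 0.0703. The fits without a library rest on 5 libraries, and over all genes they called 0 to 1736 lower and 0 to 1545 higher.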
